A study of Drosophila melanogaster with 4 samples.

Results

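Mitochondrial ribosomal proteins are encoded in the nucleus, made in the cytosol and imported into mitochondria, where they assemble with ribosomal RNA of the mitochondrial genome into a large and a small subunit. The finished mitoribosome translates the few proteins that the mitochondrial genome encodes, which are core subunits of the respiratory chain and of ATP synthase. Some of its proteins have counterparts in bacterial ribosomes, and others are found only in mitochondria. In the intestine, mitochondrial respiration supplies absorptive enterocytes and the muscle layer around the gut.

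The genes described here are all rows of the count table whose FlyBase identifier maps to a symbol that begins with mRpL (large subunit) or mRpS (small subunit). They number 72 of the 17510 rows, 47 of the large and 25 of the small subunit. Of these, 71 passed the filter on low counts, as did 9637 genes in all. The exception, mRpL53 of the large subunit, had 0 counts in every library. One further gene of this naming, mRpS5, has an identifier (FBgn0287187) that matched no row and was not analysed here. Members are short genes, with a median exon length of 783 bases (327 to 2078) against 2055 bases over all tested genes, and they lie on every large chromosome arm, with 21 tested members on 3R, 16 on 3L, 12 on 2L and 11 each on 2R and X.

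RNA came from dissected adult Drosophila melanogaster intestines without crop and Malpighian tubules. RNAi flies carried a transgene from the NIG stock collection (National Institute of Genetics) that targets CG5789, the gene now named Cftr and taken by the study as the fly counterpart of human CFTR. The other flies were labelled wild type. Each genotype had 2 libraries. The age and sex of the flies, the driver of the RNAi and any control for transgene or driver are not stated in the sources used here. The effect of the knockdown therefore cannot be told apart from that of the line background, and nothing says that libraries of a genotype came from separate flies.

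The libraries (RNAi 1, RNAi 2, WT 1 and WT 2, numbered in order of deposit) held 11294882 to 30537063 counts each, and the smallest count of a tested member in any library was 73. Cftr was not lower in every RNAi library: it had 13.8 and 17.5 CPM (counts set to a common library size, TMM-scaled) in RNAi 1 and RNAi 2, against 13.8 and 43.3 CPM in WT 1 and WT 2, so directions below are for libraries as labelled. Over all genes, earlier results of these counts showed RNAi 1 to resemble WT 1 and RNAi 2 to resemble WT 2. These are called library pair 1 and library pair 2 here, a grouping that the labels do not give. Markers of the labelled tissue were present: 6 enterocyte markers summed to 41280 and 33720 CPM in RNAi 1 and RNAi 2, against 47460 and 39000 CPM in WT 1 and WT 2. Of 3 tubule markers with a row, 2 were tested and summed to 1.83 and 1.96 CPM in RNAi 1 and RNAi 2, against 5.29 and 2.60 CPM in WT 1 and WT 2, and none of 7 germ line markers with a row passed the filter.

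The mitochondrial ribosomal protein genes did not separate the genotypes, while libraries of the same genotype differed about 2-fold. The summed level of the 71 tested members was 2794 and 1514 CPM in RNAi 1 and RNAi 2, and 3084 and 1555 CPM in WT 1 and WT 2. Both libraries of pair 1 thus lay far above both of pair 2, and the genotypes overlapped. By medians over members the levels were 38.2 and 19.4 CPM in RNAi 1 and RNAi 2, against 41.8 and 19.5 CPM in WT 1 and WT 2. The summed level in RNAi was 0.906 times that in wild type within pair 1 and 0.973 times within pair 2. In bulk tissue, fewer cells of a type and less of an RNA per cell cannot be told apart.

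**Figure D1:**
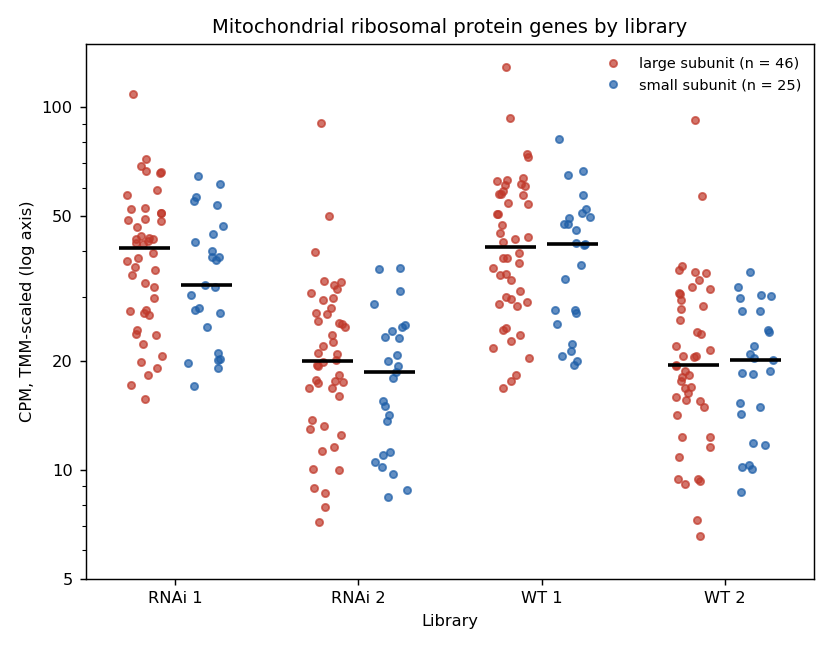
CPM of the 71 tested mitochondrial ribosomal protein genes (points, log axis) in each of the 4 libraries, by subunit, with the median as a bar. Both subunits sit lower in RNAi 2 than in RNAi 1 and lower in WT 2 than in WT 1, with large subunit medians of 40.8 and 20 CPM in RNAi 1 and RNAi 2 against 41.0 and 19.4 CPM in WT 1 and WT 2.

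Between the genotypes no member was called at 0.05 after adjustment by the quasi-likelihood test of edgeR, which called 0.125% of all tested genes (12 of 9637). None of the 71 reached an unadjusted p of 0.05, the smallest being 0.259, and limma-voom and DESeq2 also called 0. The median log2 fold change of RNAi over wild type was -0.09 over members (quartiles -0.24 and 0.01) and 0.01 over all tested genes. Its direction changed with the library left out. Without WT 1 the members' median was 0.45, and without RNAi 2 it was 0.24. Without WT 2 or RNAi 1 it was -0.54 and -0.64. Each such fit keeps a library without the other of its pair, so the difference between the pairs enters its median. No member had both RNAi libraries below both wild-type libraries, which 12.2% of tested genes had, and none had both above, which 12.0% had. Members had a median log2 difference of -1.01 between the pairs, against -0.03 over all tested genes. Such an order would need a genotype difference larger than that between the pairs. These counts therefore do not show that the genotypes were alike. This test left wide margins: the 95% interval of a member reached from -1.90 to 2.12 at the extremes, and it lay within a 2-fold change in either direction for 2 of 71.

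With the library pair as a term in the model the genotype difference was measured more tightly. The median standard error of a member's log2 fold change was 0.17, against 0.52 without the term, and the biological coefficient of variation was 14.8%, against 36.1%. All 71 intervals then lay within a 2-fold change, between -0.96 and 0.65 on the log2 scale. The median log2 fold change was -0.08 over members and 0.00 over all tested genes, with 49 members below 0 and 22 above; scaled by library size alone, the medians were 0.02 and 0.10. This fit called 2 of 71 members lower (2.82%), where it called 3.65% of all tested genes lower, and 0 higher, where it called 3.45% higher, so the members' shares were no larger than the background. The pairs were read from these same counts, and the residual degrees of freedom fell to 1. The p-values of this fit can therefore be too small and its intervals too narrow.

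Within the pairs themselves, 33 of 71 members (46.5%) were lower in the RNAi library both times, against 30.8% of all tested genes, and 11 (15.5%) were higher both times, against 30.2%. The median ratio of RNAi over wild type was 0.897-fold in pair 1 and 0.968-fold in pair 2. Over the 1775 other tested genes in the members' range of exon length and mean CPM it was 0.93-fold and 0.981-fold. With the pair term, the median log2 fold change of these genes was -0.055, against -0.081 over members. Of the 1775 genes 1059 were below 0, and of the 71 members 49 were. The count depended on the scaling. By library size alone with the pair term, 32 of 71 members were below 0, where the median over all tested genes was 0.10. The members' shifts were small beside the difference between the pairs.

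The called members were mRpS10 and mRpS25, both of the small subunit. mRpS10 (FBgn0038307, 3R at 15229665 to 15230516 of BDGP6, plus strand), the counterpart of a bacterial protein of the small subunit's head, had 24.8 and 13.6 CPM in RNAi 1 and RNAi 2, against 41.8 and 18.4 CPM in WT 1 and WT 2. Each RNAi library lay below the wild-type library of its own pair, but RNAi 1 lay above WT 2, so the genotypes overlapped. Its log2 fold change was -0.61 (SE 0.17, edgeR adjusted p = 0.0230 with the pair term) and -0.65 (SE 0.53) without it. mRpS25 (FBgn0030572, X at 14582136 to 14582982, minus strand) has a number beyond the bacterial numbering. It had 32.4 and 15.4 CPM in RNAi 1 and RNAi 2, against 49.5 and 20.9 CPM in WT 1 and WT 2. Its log2 fold change was -0.53 (SE 0.17, edgeR adjusted p = 0.0475 with the pair term). The same order of libraries held as for mRpS10. With the pair term limma-voom also called both, and DESeq2 called neither (adjusted p = 0.249 and 0.335). Scaled by library size alone with the pair term, mRpS25 was not called (edgeR adjusted p = 0.0780).

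Other members at the low end did not pass in either fit. mRpS17, the counterpart of a bacterial protein that binds small subunit ribosomal RNA, had 44.7 and 24.7 CPM in RNAi 1 and RNAi 2 against 64.9 and 31.9 CPM in WT 1 and WT 2, a log2 fold change of -0.46 with the pair term (95% interval -0.79 to -0.12). mRpL23, whose bacterial counterpart lies beside the exit of the peptide tunnel, had 22.2 and 9.98 CPM in RNAi 1 and RNAi 2 against 29.9 and 14.2 CPM in WT 1 and WT 2 (-0.46, -0.82 to -0.10). mRpL10, whose bacterial counterpart anchors the stalk that recruits translation factors, had 48.4 and 25.2 CPM in RNAi 1 and RNAi 2, and 62.7 and 35.1 CPM in WT 1 and WT 2 (-0.42, -0.76 to -0.09). In all of these the RNAi library was the lower one within each pair.

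The intervals of mRpS28, mRpL20 and mRpL45 also stayed below 0, each without passing the adjusted threshold. Their log2 fold changes with the pair term were -0.45 for mRpS28, -0.35 for mRpL20 and -0.35 for mRpL45. mRpL45 is, in mammals, the protein by which the mitoribosome is held to the inner membrane, and it had 66.0 and 50 CPM in RNAi 1 and RNAi 2 against 93.6 and 57.05 CPM in WT 1 and WT 2. For mRpL46 (-0.33) and mRpS6 (-0.31) the interval included 0.

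At the high end no interval excluded 0. mRpL41 and mRpL48, both with a number beyond the bacterial numbering, had log2 fold changes of 0.28 each with the pair term. For mRpL41 the levels were 27.4 and 12.5 CPM in RNAi 1 and RNAi 2 against 24.6 and 9.15 CPM in WT 1 and WT 2, and for mRpL48 they were 41.9 and 21.03 CPM in RNAi 1 and RNAi 2 against 37.1 and 15.9 CPM in WT 1 and WT 2. Both were higher in the RNAi library of each pair. The other 4 of the 6 members with the highest fold change in the model without the term were mRpS14, mRpL36, mRpL34 and mRpS21, at 0.26, 0.24, 0.23 and 0.18 with it. mRpL36, a small protein of the large subunit, shows how the pairs could disagree, with 43.4 CPM in RNAi 1 against 29.0 CPM in WT 1, but 10.02 CPM in RNAi 2 against 11.6 CPM in WT 2.

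**Figure D2:**
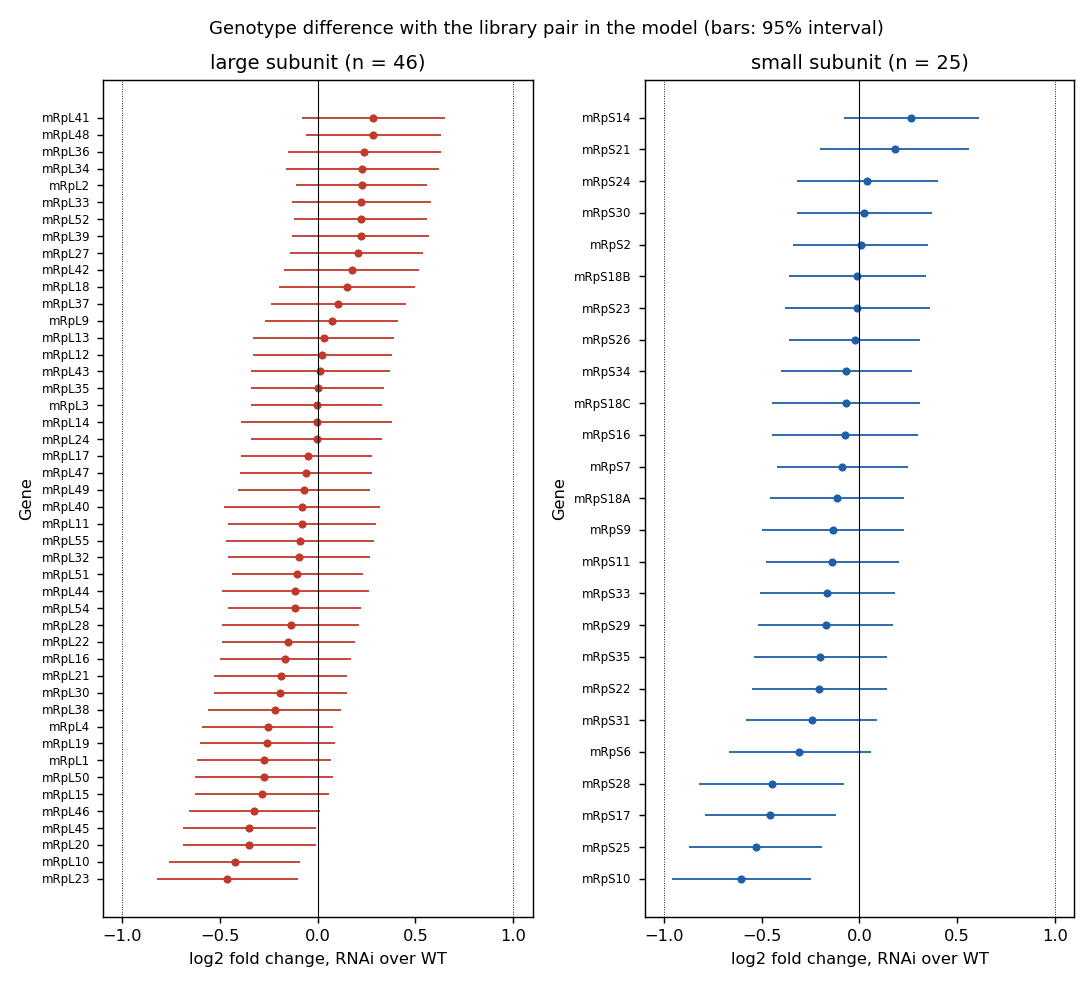
Log2 fold change of RNAi over wild type for each of the 71 tested members (points) with its 95% interval (bars), from the fit with the library pair as a term, for the large subunit on the left and the small subunit on the right; dotted lines mark a 2-fold change. Every interval stays within the dotted lines, and mRpS10 and mRpS25 lie lowest in the small subunit.

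Medians by subunit and kind of number lay between -0.17 and -0.07. Members were divided by number alone. mRpL1 to mRpL36 and mRpS2 to mRpS21 follow the bacterial numbering, and higher numbers, called mitochondrial here, lie beyond it. The classes were not checked for bacterial counterparts, so a mitochondrial number does not mark a protein found only in mitochondria. With the pair term the median log2 fold change was -0.07 over 28 large subunit members with a bacterial number and -0.08 over 18 with a mitochondrial number. In the small subunit it was -0.09 over 13 members with a bacterial number and -0.17 over 12 with a mitochondrial one. These differences between classes were not tested. The names follow the subunit in which a protein was first placed; in mammals the counterparts of mRpS18A and mRpS30 lie in the large subunit. mRpS18A had a log2 fold change of -0.11 and mRpS30 of 0.02, both with intervals that include 0; these were named after their values were seen.

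Between members, levels were compared per length. The mean level in TPM (counts per exon length, scaled to the same total in each library) ranged from 15.9 to 113 over tested members, with a median of 48.2. The highest were mRpL28 at 113 TPM, mRpL51 at 86.1 TPM and mRpL35 at 81.7 TPM, and the lowest were mRpS9 at 15.9 TPM, mRpL44 at 17.1 TPM and mRpL21 at 19.99 TPM. The order of members was much the same in every library, with a Spearman correlation of TPM across the 71 members between 0.765 and 0.915 for any pair of libraries, values that share gene lengths. None of these 6 members was called between the genotypes: with the pair term the log2 fold changes were -0.14 for mRpL28, -0.11 for mRpL51, 0.00 for mRpL35, -0.14 for mRpS9, -0.11 for mRpL44 and -0.19 for mRpL21, and every interval included 0.

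The difference between libraries of the same genotype was larger and shared by nearly every member. In RNAi 2 the median member was at 0.513 times its level in RNAi 1, and in WT 2 it was at 0.481 times its level in WT 1. Lower levels in both RNAi 2 than RNAi 1 and WT 2 than WT 1 were seen for 70 of 71 members (98.6%), against 38.3% of all tested genes. A difference of at least 1.5-fold in both was seen for 60 of 71 (84.5%), against 14.8% of all tested genes. These libraries carry the same label, so no group of the study is compared here, and the values are given without a test.

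Single members show the size. mRpL27, a large subunit protein with a bacterial counterpart, had 19.8 CPM in RNAi 2 against 68.7 CPM in RNAi 1, and 18.0 CPM in WT 2 against 57.4 CPM in WT 1. mRpL12, whose bacterial counterpart forms the factor-binding stalk, had 28.0 CPM in RNAi 2 against 51.0 CPM in RNAi 1, and 22.0 CPM in WT 2 against 61.4 CPM in WT 1. In both genes the libraries of pair 2 lay below those of pair 1, whatever the genotype. The exception was mRpS30, the longest member, which was higher in RNAi 2 and lower in WT 2, with 35.98 CPM in RNAi 2 against 31.9 CPM in RNAi 1, and 30.05 CPM in WT 2 against 36.8 CPM in WT 1. mRpL28, the most abundant member, differed little, with 90.5 CPM in RNAi 2 against 109 CPM in RNAi 1, and 92.4 CPM in WT 2 against 129 CPM in WT 1. Members named in this paragraph other than mRpL28 were chosen after their values were seen.

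**Figure D3:**
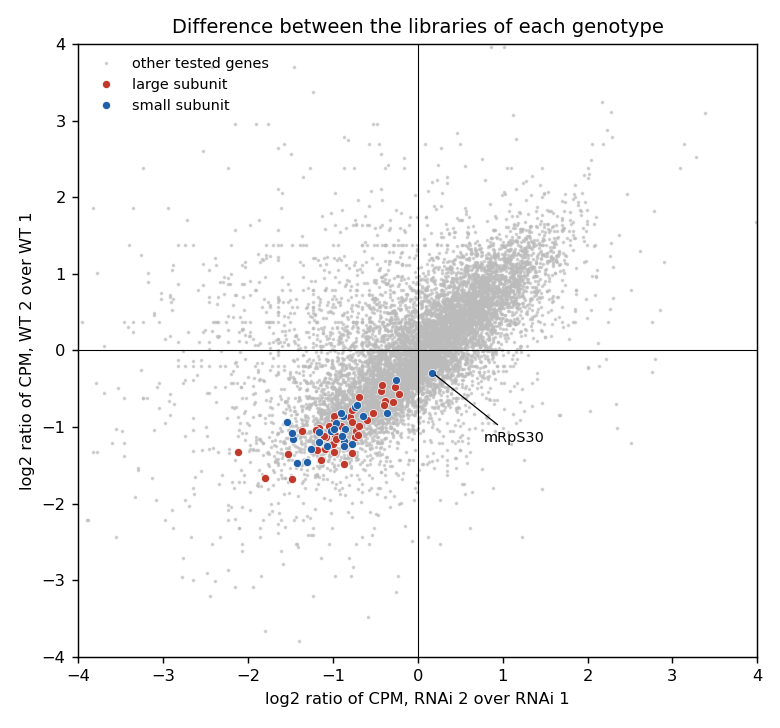
Log2 ratio of CPM between libraries of a genotype, RNAi 2 over RNAi 1 (horizontal) and WT 2 over WT 1 (vertical), for members (coloured by subunit) and other tested genes (grey); 91 genes lie outside the axes or have a library at 0. Members gather at the lower left, with 70 of 71 below 0 on both axes and mRpS30 apart.

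Exon length moved with this difference. With genotype in the fit, the log2 difference of pair 2 over pair 1 had a median of -1.01 over members and -0.03 over all tested genes. It was -0.39 over the 4673 other tested genes whose exon length lay in the members' range. Over the 1775 of these that also lay in the members' range of mean CPM it was -0.42. Both sets share only the limits of the range, and were not matched to the members' spread of lengths within it. Across genes, which are not independent, the Spearman correlation of the difference with exon length was 0.520 over the 71 members and 0.518 over all tested genes. When a smooth trend on transcript length was removed from each library, the members' median became -0.39 (0.764-fold), with 66 of 71 below 0, against a median of 0.00 over all tested genes.

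**Figure D4:**
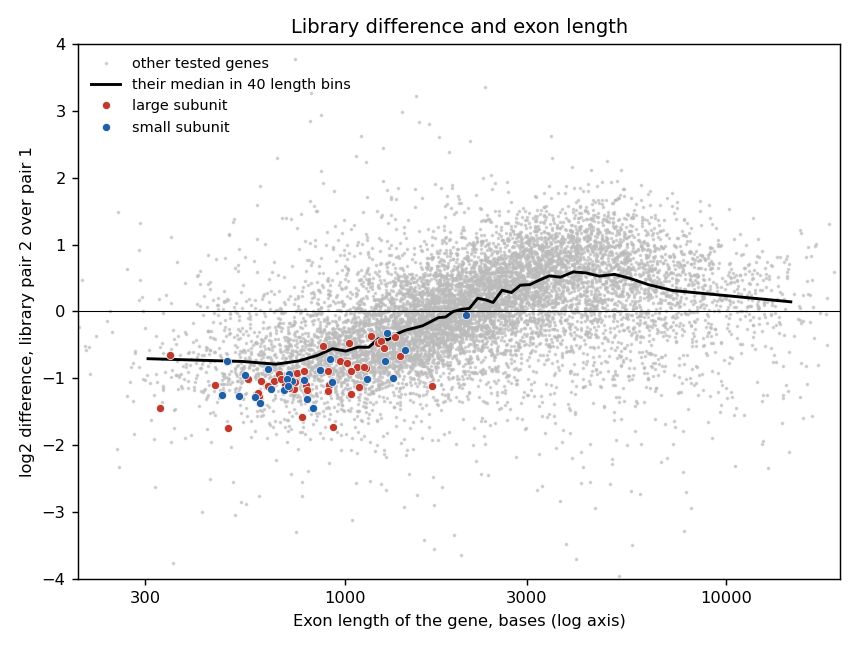
Log2 difference of library pair 2 over pair 1 (vertical, genotype in the fit) against exon length in bases (log axis) for members (coloured by subunit) and other tested genes (grey), with the median of the others in 40 bins of equal gene number; 145 genes lie outside the axes. Short genes as a whole lie below 0, and most members lie below the median of genes of their length.

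Markers of other cells moved with the pairs too. The 9 visceral muscle markers summed to 1303 CPM in RNAi 2 against 762 CPM in RNAi 1, and to 1929 CPM in WT 2 against 1029 CPM in WT 1, and all 9 were higher in pair 2 in both genotypes. Between the genotypes 3 of the 9 (up, sls and TpnC47D) were called lower in RNAi with the pair term. Of all tested genes, that fit called 3.65% lower and 3.45% higher. The same fit called 1 of 4 stem cell and 1 of 5 fat body markers higher, and of 7 enteroendocrine markers it called 2 higher and 1 lower. It called 2 of 6 enterocyte markers higher, while 2 others had a fold change below 0 and the sum of the 6 in RNAi was 0.870 times that in wild type in pair 1 and 0.865 times in pair 2. Fat body markers, 5 of 7 tested, summed to 391 CPM in RNAi 2 against 187 CPM in RNAi 1, but to 215 CPM in WT 2 against 207 CPM in WT 1. Stem cell and enteroblast markers, of which 4 were tested, summed to 50.9 and 55.5 CPM in RNAi 1 and RNAi 2, against 41.4 and 44.0 CPM in WT 1 and WT 2. The part of cell makeup in the members' values was not tested.

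Other genes of mitochondrial gene expression were set beside the members. Of 3 mitoribosomal proteins that carry other names, 2 were called lower in RNAi with the pair term, and CG4679 was not (log2 fold change -0.13). The first, tko, the counterpart of a bacterial protein of the decoding centre, had 39.0 and 22.5 CPM in RNAi 1 and RNAi 2 against 78.35 and 37.0 CPM in WT 1 and WT 2. Its log2 fold change with the pair term was -0.87 (SE 0.17, edgeR adjusted p = 4.11e-04), a call that DESeq2 (adjusted p = 0.00541) and limma-voom (adjusted p = 2.99e-04) made as well. bonsai, the counterpart of another bacterial small subunit protein, had 21.7 and 14.2 CPM in RNAi 1 and RNAi 2 against 35.5 and 19.5 CPM in WT 1 and WT 2, with a log2 fold change of -0.59 (SE 0.17, edgeR adjusted p = 0.0279) that DESeq2 did not call (adjusted p = 0.279). Without the pair term both had an edgeR adjusted p of 1.0. CG4866, to which RefSeq gives the synonym mRpS4 and which was added after its values were seen, had 23.0 and 11.9 CPM in RNAi 1 and RNAi 2 against 26.7 and 11.8 CPM in WT 1 and WT 2, a log2 fold change of -0.11 with an adjusted p of 0.829.

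Genes that serve the mitoribosome gave no call in either fit. With the pair term 3.65% of all tested genes were called lower and 3.45% higher, so short lists may hold none. Of 8 tested translation factors, 0 passed, with medians of -0.20 between the genotypes and -0.44 between the pairs. The elongation factor genes mEFG1 and mEFTu2 had log2 fold changes of -0.49 and -0.47 with the pair term (edgeR adjusted p = 0.116 and 0.0961). Of 15 tested mitochondrial aminoacyl-tRNA synthetases, which charge the transfer RNAs used by the mitoribosome, 0 passed, and their median difference between the pairs was 0.05. SerRS-m and ProRS-m, the members of that list with the smallest p, had log2 fold changes of -0.43 and -0.33 between the genotypes. Of 15 tested genes of mitochondrial transcription and RNA handling, 0 passed, with a median of 0.06 between the genotypes and -0.10 between the pairs; the values of mTerf3 and RNaseZ were -0.25 and 0.28.

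Ribosomal proteins of the cytosol differed between the pairs as the mitochondrial ones did, with a median of -0.96 over 83 tested genes and all 83 below 0. Between the genotypes their median with the pair term was -0.33, with 82 of 83 below 0. For the mitochondrial family these were -0.08 and 49 of 71. Of the 83, 1 gene passed, RpL35A at a log2 fold change of -0.66 (edgeR adjusted p = 0.0202), where 3.65% of all tested genes were called lower. RpS4 was at -0.49 (adjusted p = 0.161). The difference between the families was not tested. Where cytosolic ribosomal protein genes have near-identical copies, the assignment of reads between them is uncertain.

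RNAs of the mitochondrial genome were also read, while the proteins that the mitoribosome makes were not measured. Mitochondrially encoded RNAs, 36 of them tested, had medians of 0.05 between the genotypes and -0.27 between the pairs, and none passed with the pair term. Of the transcripts the mitoribosome translates, mt:CoI (cytochrome c oxidase subunit I) had 4109 and 4828 CPM in RNAi 1 and RNAi 2 against 4161 and 5445 CPM in WT 1 and WT 2. The ribosomal RNA of the large subunit, mt:lrRNA, had 25680 and 35370 CPM in RNAi 1 and RNAi 2 against 18850 and 29430 CPM in WT 1 and WT 2, a log2 fold change of 0.36 (SE 0.25, edgeR adjusted p = 0.509 with the pair term). Neither transcript was lower in the libraries of pair 2, where the protein genes were, but both were named after their values were seen. Of the 36 tested RNAs, 24 were below 0 between the pairs and 12 above. The transfer RNA genes mt:tRNA:Gln-TTG and mt:tRNA:Gly-TCC, with the smallest p of this list, had levels of 5.12 CPM or less in every library and log2 fold changes of 0.84 and -0.89.

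Nuclear respiratory chain genes had a median of -0.16 between the genotypes over 65 tested genes and -0.67 between the pairs. Of these, 2 of 65 were called lower with the pair term, SdhA and ND-51, at -0.97 and -0.91. That fit called 3.65% of all tested genes lower. The import genes had medians of -0.16 between the genotypes and -0.60 between the pairs over 9 tested, with 0 called, and mge and Tom40 were at -0.49 and -0.25. Of 7 mitochondrial chaperone and protease genes 0 passed, with ClpP and Trap1 at -0.15 and -0.14, and of 7 regulators of mitochondrial biogenesis and growth 0 passed, with srl, the fly counterpart of PGC-1, at -0.37 and Ets97D at 0.29. The median difference between the pairs was 0.15 for the chaperones and proteases and 0.13 for the regulators.

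**Figure D5:**
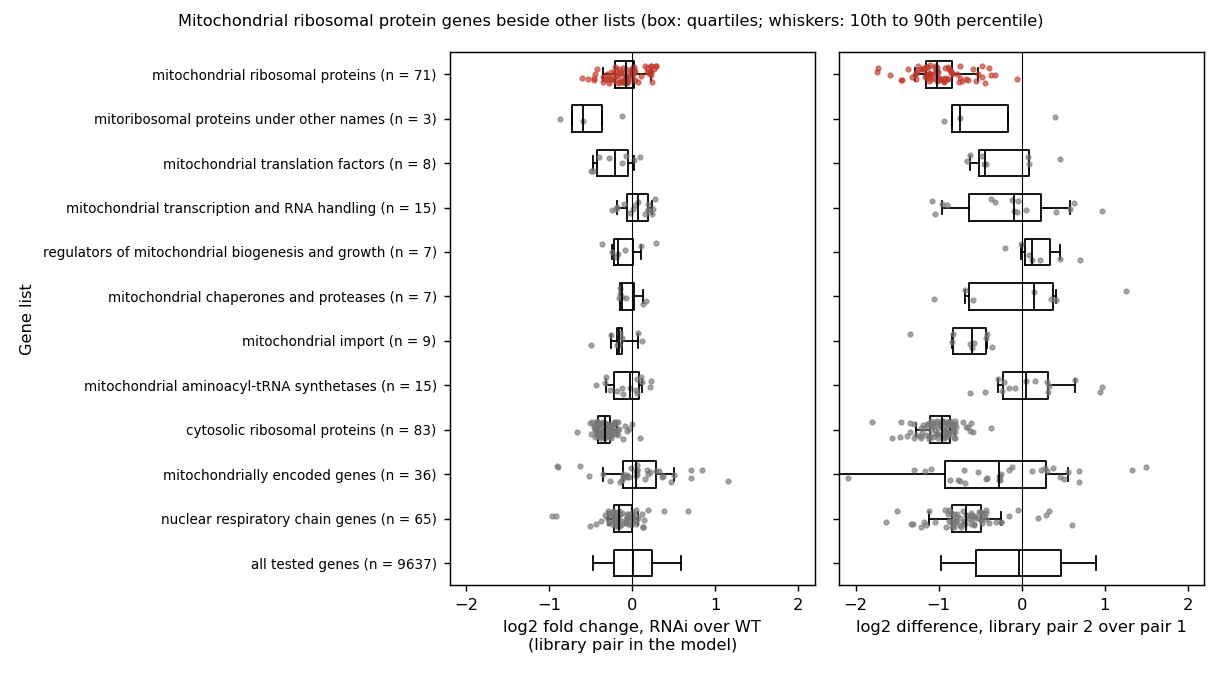
Log2 fold change of RNAi over wild type with the library pair in the model (left) and log2 difference of library pair 2 over pair 1 (right) for members (red) and genes of companion lists (grey points), with boxes from the lower to the upper quartile, the median as a line and whiskers at the 10th and 90th percentiles; 5 values lie outside the axes. Members and cytosolic ribosomal proteins have medians of -1.01 and -0.96 on the right, and of -0.08 and -0.33 on the left.

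The annotation limits some counts. Exons of 41 tested members overlap a gene on the other strand, and the strand setting of the counting is not stated in the sources used here. The overlap took over 20% of the exon length in 6 members, among them mRpS24 (55.3%, with TBC1d7), mRpS21 (48.0%, with CG8870), mRpS14 (32.0%) and mRpS9 (25.1%, with the mitochondrial synthetase gene ArgRS-m). The 29 members with no exon overlap at all had a median log2 fold change of -0.09 between the genotypes with the pair term and -1.02 between the pairs, and the 42 others had -0.07 and -1.01.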

How the data were processed

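RNA of adult intestines was sequenced from 2 RNAi and 2 wild-type libraries. The values are raw read counts per gene as deposited by the authors, whole numbers without normalization, 1 column per library. FastQC, STAR and BDGP6 are named in the submitters' processing notes; tool versions, the counter, its strand setting and the gene models are not stated in the sources used here. Of the table's identifiers 17405 matched a symbol and 105 did not. Positions and lengths came from a BDGP6 annotation.

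Counts were filtered with filterByExpr, scaled by TMM and tested across all 9637 genes with the quasi-likelihood test of edgeR 4.0.16 in R 4.3.3, with genotype alone as the main model and Benjamini-Hochberg adjustment. CPM values are TMM-scaled. Alternatives used other scaling and filters, each library left out, DESeq2 1.42.0, limma-voom (limma 3.58.1), the library pair as a term, and a loess trend (span 0.5) on the longest transcript removed per library. Scripts were tested on simulated data. With 2 libraries a genotype and no statement of separate flies, p-values reflect the spread of these libraries alone, which may be technical.

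Members, lists, pairs and tests were chosen with earlier results of these data known. Named genes were those called, the 6 highest and 6 lowest by fold change, the smallest p-values in both models (6 and 10), the 3 highest and 3 lowest per length, members not tested, Cftr, tko and bonsai, and 2 genes of each companion list by p. CG4679, CG4866, mt:CoI, mt:lrRNA and mt:srRNA were added after their values were seen.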

Additional observations from a re-analysis of the deposited data

How the results depend on the processing

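The number of genes called was 12 in the main model and 14 with RLE factors, 14 with library size alone, 12 without the 20 most abundant genes and 11 with limma-voom. It was 1 with upper-quartile factors, 1 with a minimum mean of 5 CPM, 120 without a count filter, 92 with DESeq2, 31 with the length trend removed and 58 to 120 with a library left out. With the library pair as a term it was 684, and 409 by DESeq2, 751 by limma-voom, 963 with library size alone and 907 with the length trend removed, the last 4 chosen after the data were seen. In the same order the members called were 2, 0, 2, 1 and 4, all lower, and the companion genes called were 5, 4, 5, 6 and 9; in every fit without the pair term both numbers were 0. The 4 members called with pair term and length trend were mRpS10, mRpS25, mRpS17 and mRpL23. The members' median log2 fold change lay between -0.64 and 0.45 with a library left out, and with library size alone it was 0.01 while that of all genes rose to 0.10.

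Near 0, mRpL51 was at 0.024 with library size alone, and mRpL35 was at -0.019 without a count filter, -0.007 with limma-voom, -0.034 with the length trend removed and -0.033 with that and the pair term. With a library left out, where the single library of a genotype was taken to vary as much as the remaining genotype, the log2 fold change spanned 0 for these genes: mRpL36 (-1.02 to 1.17), mRpS14 (-0.60 to 0.98), mRpS21 (-0.70 to 0.80), mRpL48 (-0.34 to 0.96), mRpL34 (-0.71 to 1.06), mRpL41 (-0.44 to 1.10), mRpS10 (-1.15 to 0.036), mRpS25 (-1.19 to 0.17), mRpS17 (-0.97 to 0.094), mRpL23 (-1.15 to 0.16), mRpS28 (-1.16 to 0.24), mRpL10 (-0.96 to 0.042), mRpL45 (-0.68 to 0.001), mRpL20 (-0.94 to 0.26), mRpL46 (-0.97 to 0.31), mRpS6 (-0.83 to 0.14), mRpL28 (-0.36 to 0.087), mRpL51 (-0.80 to 0.50), mRpL35 (-0.56 to 0.48), mRpS9 (-0.31 to 0.044), mRpL44 (-0.55 to 0.41), mRpL21 (-0.87 to 0.43), Cftr (-1.49 to 0.20), RNaseZ (-0.15 to 0.71), ClpP (-0.51 to 0.22), Trap1 (-0.36 to 0.033), mge (-0.99 to 0.058), Tom40 (-0.67 to 0.18) and mt:tRNA:Gly-TCC (-2.03 to 0.40). Leaving out a library leaves the pair-term model with 0 residual degrees of freedom, so it gave no test there. As stated above for the medians, a fit with a library left out also takes in the difference between the pairs. What else moved the values was not tested. The labels give no replicate numbers, so the pairing behind the pair-term fits rests on the counts and not on the design.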

Other observations

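mRpL53 was the one member at 0 counts in all 4 libraries. All 829 bases of its exons lie within exons of CG33155 on the same strand (2R, 13954195 to 13955664 of BDGP6), and AGO1 overlaps 33 of them on the other strand. CG33155 itself had 35 and 31 counts in RNAi 1 and RNAi 2, against 45 and 20 counts in WT 1 and WT 2. How reads shared by both genes were counted is not stated in the sources used here; the 0 does not show that the RNA was absent.

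The ribosomal RNA of the mitochondrial small subunit, mt:srRNA, did not follow that of the large subunit across libraries. It had 829 and 260 CPM in RNAi 1 and RNAi 2, against 687 and 752 CPM in WT 1 and WT 2, with an edgeR adjusted p of 0.800 between the genotypes with the pair term. RNAi 2 stood below the other 3 libraries.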
